A study of Mus musculus with 12 samples.

Results

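Malat1, Neat1 and Miat are genes of long noncoding RNAs (lncRNAs) whose transcripts stay in the nucleus. They were chosen by name, and all 3 were found among the 24480 genes counted in each of 12 RNA-Seq libraries of mouse embryonic stem cells (ESCs). The cells were of E14Tg2a, a single ESC line grown without feeder cells in the presence of leukemia inhibitory factor, and all of them were transfected transiently with a lipid reagent. In the knockdown experiment, CTR KD cells received scrambled siRNAs and YAP KD cells a mix of siRNAs against Yap1, the transcriptional coactivator of the Hippo pathway. RNA was collected when, according to the study, YAP was at its lowest. In the overexpression experiment, YAP OE cells received a plasmid with mouse YAP under the ubiquitous CAG promoter, and CTR OE cells received a control plasmid, which the labels describe as expressing GFP and the study's text as empty. Each of the 4 groups had 3 libraries from samples that the study describes as independent, and the knockdown and overexpression experiments shared no library.

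Malat1 RNA is concentrated in nuclear speckles, the compartments that store splicing factors, and is among the most abundant lncRNAs of mammalian cells. Its 3′ end is not polyadenylated but cut by RNase P and protected by a helix of RNA strands, so a library from total RNA can hold it whatever the state of its tail. Neat1, its neighbor in the genome, is the scaffold of paraspeckles. It is made as a short and a long isoform that begin at the same site, and only the long one builds these bodies. Miat, also called Gomafu, forms separate nuclear foci, binds splicing factors and is known mainly from neurons, although it was also described in ESCs.

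In mm10, the build the authors used, Malat1 occupied positions 5795690 to 5802672 of chromosome 19 (6983 bases) and Neat1 positions 5824708 to 5845480 (20773 bases), with 22035 bases between them and 5493 bases between Neat1 and the protein-coding gene Frmd8. Miat occupied positions 112213228 to 112228948 of chromosome 5 (15721 bases). RefSeq annotated all 3 as lncRNA genes, Malat1 with 1 transcript and Neat1 and Miat with 2 each. Promoter sequences were found for 2 of the 3, and they are shown because these genes varied together between libraries, as described further on. Each runs 5′ to 3′ on the minus strand, from 250 bases before to 50 bases after the transcript start in RefSeq on GRCm38.p6, and lies at chr19:5802623-5802922 for Malat1 and chr5:112228899-112229198 for Miat. Capitals mark TGACGT, the core of the cAMP response element, on either strand.
Malat1: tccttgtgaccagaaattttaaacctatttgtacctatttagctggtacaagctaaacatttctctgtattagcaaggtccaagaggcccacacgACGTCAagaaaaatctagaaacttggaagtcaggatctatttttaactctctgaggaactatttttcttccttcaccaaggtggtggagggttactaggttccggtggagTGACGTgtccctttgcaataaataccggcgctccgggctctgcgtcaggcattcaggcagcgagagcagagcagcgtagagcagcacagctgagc
Miat: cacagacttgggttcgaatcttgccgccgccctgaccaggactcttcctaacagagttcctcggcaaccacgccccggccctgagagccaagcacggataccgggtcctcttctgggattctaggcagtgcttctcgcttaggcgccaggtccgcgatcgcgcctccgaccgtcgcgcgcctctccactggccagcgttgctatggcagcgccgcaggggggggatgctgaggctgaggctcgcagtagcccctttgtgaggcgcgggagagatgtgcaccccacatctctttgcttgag
The Malat1 window had 47.0% G+C and 10 CpG dinucleotides, and the Miat window 64.3% and 25, beside a median of 52.7% G+C over 32851 mouse promoters. The ratio of observed to expected CpG was 0.604 for Malat1 and 0.807 for Miat, against a median of 0.384. Of 5 sets of letters searched on both strands, the Malat1 window held only TGACGT, as printed from 45 bases before the start and as its reverse complement ACGTCA from 155 bases before it, and 7.51% of all promoters held it at least once. The TEAD motif GGAATG, through which YAP reaches DNA, is in 14.7% of promoters, the AP-1 motif TGANTCA in 7.81%, the octamer ATGCAAAT in 1.74% and the TATA box letters TATAAA in 13.6%. These letters were in neither window, and the Miat window did not hold TGACGT either. No 2 of these motifs overlapped in the windows.

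The libraries held 42926256 to 57240703 expected counts, the read numbers that RSEM assigns to genes, and the expected counts of the 3 lncRNAs were whole numbers in all 12 libraries, so no read was divided between them and another gene. The targeted gene followed the labels. Yap1 was at 125.4 ± 9.40 CPM (counts scaled to a common library size) in CTR KD, 56.7 ± 1.80 in YAP KD, 132.6 ± 2.02 in CTR OE and 258.9 ± 16.6 in YAP OE (SD, n = 3). All 8 ESC markers examined, Pou5f1, Sox2 and Nanog among them, were detected, and their sum was 5548 to 6058 CPM per library. The sum of 6 fibroblast markers was 1.89 to 2.14 CPM in CTR KD and 2.39 to 3.11 in YAP KD. It was 2.45 to 3.01 CPM in CTR OE and 2.63 to 2.79 in YAP OE. The sum of 5 primitive endoderm markers was 5.93 to 6.79 CPM in CTR KD and 6.37 to 7.45 in YAP KD. It was 5.69 to 6.91 CPM in CTR OE and 7.38 to 8.21 in YAP OE. Dab2 and Gata4, the largest parts of this sum, had log2 fold changes of 0.63 and −0.26 in YAP OE. The sum of 8 neuronal and neural progenitor markers was 118.2 to 121.0 CPM in CTR KD and 128.4 to 135.2 in YAP KD. In CTR OE it was 124.1 to 126.5 CPM and in YAP OE 114.5 to 119.3. Tubb3 and Nes, the largest parts of the sum, had log2 fold changes of 0.32 and 0.45 in YAP KD and −0.20 and −0.12 in YAP OE. Neurod1 went the other way, with −0.31 and 0.096. Map2, Pax6 and Rbfox3 had negative values in both experiments and Sox1 positive ones, so the markers did not move together. The part of cells of these other types in the levels of the lncRNAs was not tested. In these bulk samples fewer cells of a type and less RNA per cell cannot be told apart.

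Malat1 was one of the most abundant RNAs of these cells. It took 0.439% to 0.762% of all expected counts (189708 to 381519 per library) and ranked between 8 and 12 among all genes by count in every library. After scaling with TMM factors, its level in CTR KD was 7594 CPM in replicate 1, 4693 in replicate 2 and 5849 in replicate 3. In YAP KD it was 4502, 6108 and 6682 CPM in the same order. The knockdown groups therefore overlapped, and replicate 1 of CTR KD and replicate 1 of YAP KD were the highest and the lowest of all 12 libraries. In CTR OE the level was 6223, 6912 and 7230 CPM, and in YAP OE it was 6654, 6813 and 6066 CPM, again with overlap and in a narrower range. The means were 6045 ± 1460 CPM in CTR KD, 5764 ± 1130 in YAP KD, 6788 ± 515 in CTR OE and 6511 ± 394 in YAP OE (SD, n = 3).

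Neat1 was present at moderate levels, with 5205 to 10083 expected counts per library and a rank by count between 840 and 1621. In CTR KD it was at 182.4, 113.8 and 126.4 CPM in replicates 1 to 3, and in YAP KD at 123.5, 161.2 and 173.3 CPM. As with Malat1, the highest of these was replicate 1 of CTR KD, and replicate 2 of CTR KD and replicate 1 of YAP KD were the lowest. In CTR OE it was at 158.4, 151.6 and 191.1 CPM and in YAP OE at 157.1, 175.4 and 137.6 CPM. The groups overlapped in both experiments, with means of 140.9 ± 36.5 CPM in CTR KD, 152.6 ± 25.9 in YAP KD, 167.0 ± 21.1 in CTR OE and 156.7 ± 18.9 in YAP OE (SD, n = 3).

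Miat was present at a low level. It had 87, 59 and 74 expected counts in CTR KD, 55, 79 and 97 in YAP KD, 125, 100 and 130 in CTR OE, and 102, 91 and 111 in YAP OE. In CPM this came to 1.91, 1.11 and 1.54 in CTR KD and 1.31, 1.80 and 1.81 in YAP KD, where the groups overlapped and the order of the libraries resembled that of Malat1. In CTR OE it came to 2.41, 2.05 and 2.46 CPM and in YAP OE to 1.97, 2.08 and 1.98, so the groups overlapped here too, and every overexpression library lay above every knockdown library. The means were 1.52 ± 0.398 CPM in CTR KD, 1.64 ± 0.288 in YAP KD, 2.31 ± 0.228 in CTR OE and 2.01 ± 0.0609 in YAP OE (SD, n = 3). Counting error alone would give a coefficient of variation of 8.77% to 13.5% per library for Miat, of 0.996% to 1.39% for Neat1 and of 0.162% to 0.230% for Malat1.

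**Figure D1:**
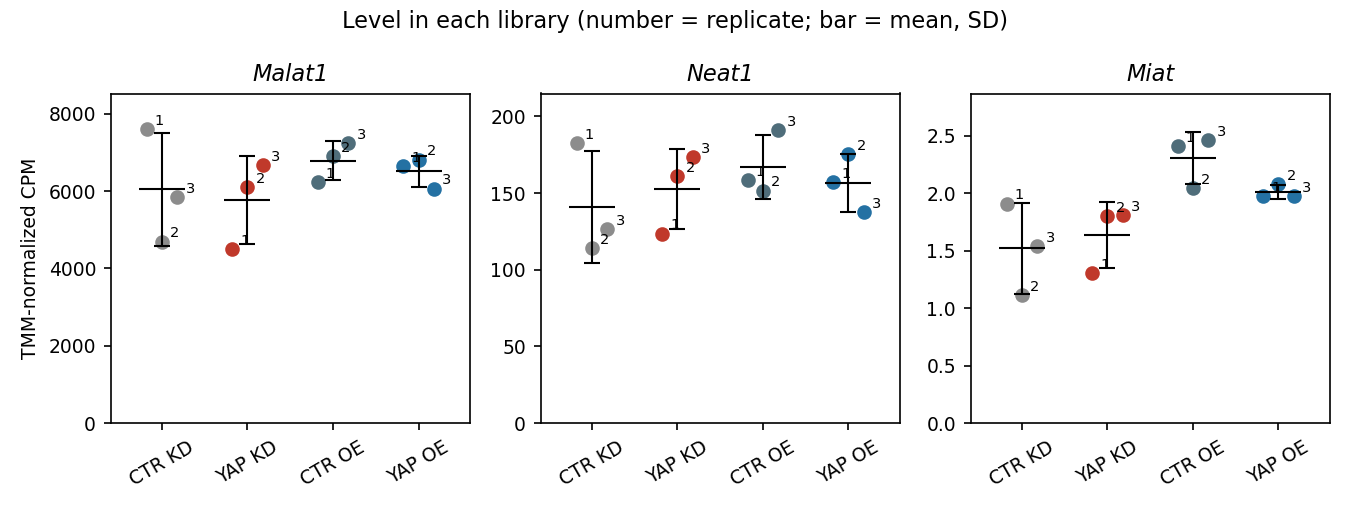
TMM-normalized CPM (linear axis from 0) of Malat1, Neat1 and Miat in the 12 libraries. Points are libraries numbered by replicate, bars are the mean and SD of 3 libraries. For all 3 RNAs the points of CTR KD are the most spread, from 4693 to 7594 CPM for Malat1, and the YAP and CTR points of each experiment overlap.

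Levels of different genes can be compared only per length. Per kilobase of effective length, Malat1 had a mean level of 922.3 CPM (662.4 to 1115 over the libraries), Neat1 one of 18.3 CPM (13.6 to 24.5) and Miat one of 0.219 CPM (0.130 to 0.288). Malat1 was thus 45.5 to 55.8 times as abundant as Neat1 (median 49.7) and 3236 to 5290 times as abundant as Miat (median 4255), and the ranges over libraries were separate. Malat1 ranked between 135 and 169 by this measure among 23112 entries of at least 200 bases, and Neat1 between 2971 and 4703. Among 25 other lncRNAs listed for comparison, only Rmrp and Rpph1, the RNA components of RNase MRP and RNase P, had a higher mean level per kilobase than Malat1, and these are short structured RNAs. Snhg1, a host gene of small nucleolar RNAs, came next with 190.8 CPM per kilobase, and the imprinted lncRNA Rian with 104.1. Meg3, transcribed from the same imprinted cluster as Rian, stood at 38.03 CPM per kilobase and the X-linked Firre at 20.6, close to the level of Neat1. H19, another imprinted lncRNA, at 0.416 CPM per kilobase, and the neural Tunar, at 0.332, were the nearest above Miat.

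The first comparison asked whether the 3 lncRNAs respond when YAP falls. None of the 3 was called in YAP KD by the edgeR quasi-likelihood test, where 5.49% of 14606 genes had an adjusted p under 0.05, and 0 of the 3 had an unadjusted p under 0.05. DESeq2 and limma-voom also called 0 of 3. The log2 fold change of Malat1 was −0.067 (edgeR adjusted p = 0.889, SE 0.174), with a 95% interval from −0.46 to 0.32. Neat1 had a log2 fold change of 0.12 (edgeR adjusted p = 0.766, SE 0.169, interval −0.26 to 0.50) and Miat one of 0.13 (edgeR adjusted p = 0.8005, SE 0.210, interval −0.34 to 0.60). Differences of any size inside these intervals remain compatible with these libraries. The values rested on single libraries. Without CTR KD replicate 1, the log2 fold changes of Malat1, Neat1 and Miat became 0.13, 0.34 and 0.32, and without CTR KD replicate 2 they became −0.22, −0.013 and −0.060. Leaving out YAP KD replicate 1 gave 0.082, 0.25 and 0.26.

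The second comparison asked the same when YAP was raised. Again none of the 3 was called by edgeR, DESeq2 or limma-voom in YAP OE, with 0 of 3 at an unadjusted p under 0.05, beside 2.13% of 14804 genes called by edgeR. The log2 fold change was −0.060 for Malat1 (edgeR adjusted p = 0.782, SE 0.0658, interval −0.20 to 0.081) and −0.092 for Neat1 (edgeR adjusted p = 0.713, SE 0.0832, interval −0.27 to 0.085). It was −0.20 for Miat (edgeR adjusted p = 0.527, SE 0.122, interval −0.46 to 0.059). The intervals of all 3 were narrower than in the knockdown. The biological coefficient of variation that edgeR fitted was 5.71% for Malat1, 7.30% for Neat1 and 5.46% for Miat, against 15.0%, 14.6% and 14.5%. The test also had 14.9 degrees of freedom here, against 9.72 in the knockdown. Without CTR OE replicate 3 the value of Neat1 was 0.014, and in the other 5 fits that each left out a library it stayed below 0.

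The effects in the experiments were then compared with each other in a fit of all 12 libraries. The effect in YAP KD minus that in YAP OE was −0.0083 for Malat1 (edgeR adjusted p = 0.989, SE 0.207), 0.21 for Neat1 (edgeR adjusted p = 0.639, SE 0.218) and 0.33 for Miat (edgeR adjusted p = 0.460, SE 0.240) on the log2 scale. None of the 3 was called, with 0 at an unadjusted p under 0.05, beside 8.8% of 15049 genes. These values moved with single libraries. Without CTR KD replicate 1 they were 0.19, 0.44 and 0.52, with an unadjusted edgeR p of 0.0205 for Neat1 and 0.0367 for Miat (adjusted 0.130 and 0.182), and without CTR KD replicate 2 they were −0.16, 0.080 and 0.14. Leaving out YAP KD replicate 1 gave 0.14, 0.34 and 0.46. With effective length as an offset the value of Neat1 was 0.081. For Yap1 the same difference was −2.11.

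**Figure D2:**
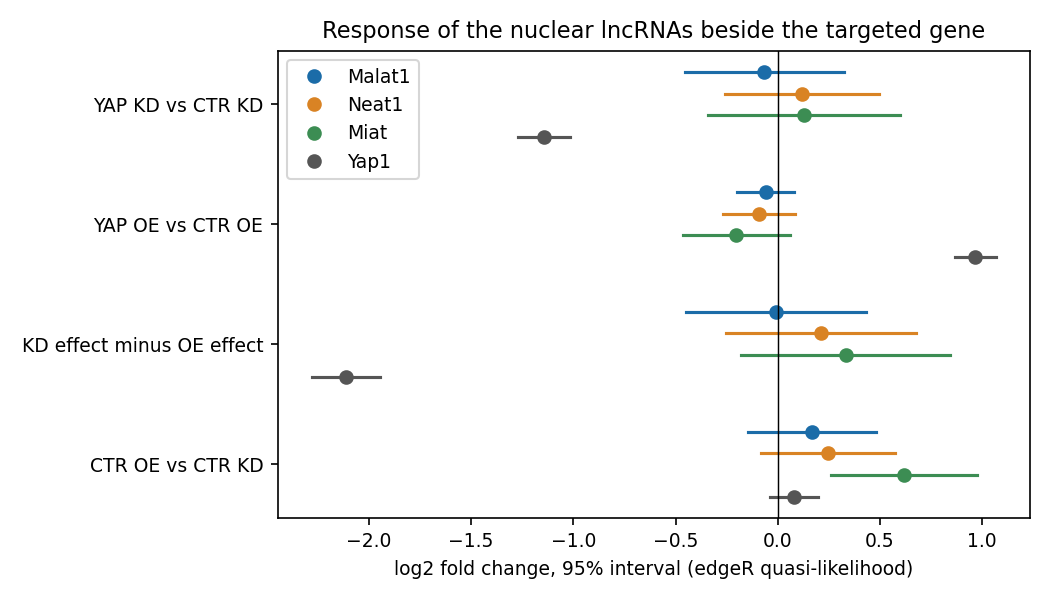
Log2 fold changes (x axis) of Malat1, Neat1, Miat and the targeted gene Yap1 in 4 edgeR comparisons (rows), points with 95% intervals as lines. The intervals of the lncRNAs include 0 in every row except that of Miat between the controls (0.26 to 0.97), while Yap1 lies at −1.14 in YAP KD and 0.97 in YAP OE.

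The control cells of the experiments were compared last. Miat was 1.53-fold higher in CTR OE than in CTR KD, a log2 difference of 0.62 (SE 0.168, interval 0.26 to 0.97). The edgeR quasi-likelihood test gave an unadjusted p of 0.00223 and an edgeR adjusted p = 0.1004, so it missed the threshold that 1.33% of 15049 genes passed. It passed the threshold without CTR KD replicate 1, where the difference was 0.81 (edgeR adjusted p = 0.0344), and fell to 0.43 without CTR KD replicate 2. Malat1 and Neat1 had log2 differences of 0.17 (edgeR adjusted p = 0.771, SE 0.146) and 0.25 (edgeR adjusted p = 0.631, SE 0.154). Without CTR KD replicate 1 they were 0.36 (edgeR adjusted p = 0.228, 0.0128 unadjusted) and 0.48 (edgeR adjusted p = 0.0957, 0.00202 unadjusted), and without CTR KD replicate 2 they were 0.017 and 0.12. With effective length as an offset the difference of Neat1 was 0.072. The experiment and the transfected molecule, a plasmid or an siRNA, cannot be told apart in this comparison.

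The 3 lncRNAs differed more between replicates than most genes. The residual SD of log2 CPM within groups was 0.240 for Malat1, 0.253 for Neat1 and 0.243 for Miat, higher than for 83.2%, 84.4% and 83.6% of 15049 genes, whose median was 0.0891. Yap1 had 0.0752. In the knockdown libraries alone the values were 0.324, 0.311 and 0.327, beside a median of 0.0917 for all genes, and in the overexpression libraries 0.1004, 0.176 and 0.106, beside 0.0797. This difference between the experiments was not tested. For Miat, whose counts were low, counting error is part of the spread.

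Much of this variation was shared. In CTR KD, replicate 1 lay above its group mean by 0.36 for Malat1, 0.40 for Neat1 and 0.35 for Miat on the log2 scale, and replicate 2 deviated by −0.34, −0.28 and −0.40. In YAP KD, replicate 1 deviated by −0.34, −0.29 and −0.30, and replicate 3 by 0.23, 0.20 and 0.16. The same libraries were thus high or low for all 3 RNAs, although Miat lies on another chromosome. In the overexpression the deviations were smaller, and the signs of the 3 RNAs were alike in CTR OE replicate 3, YAP OE replicate 2 and YAP OE replicate 3 but differed in the others.

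**Figure D3:**
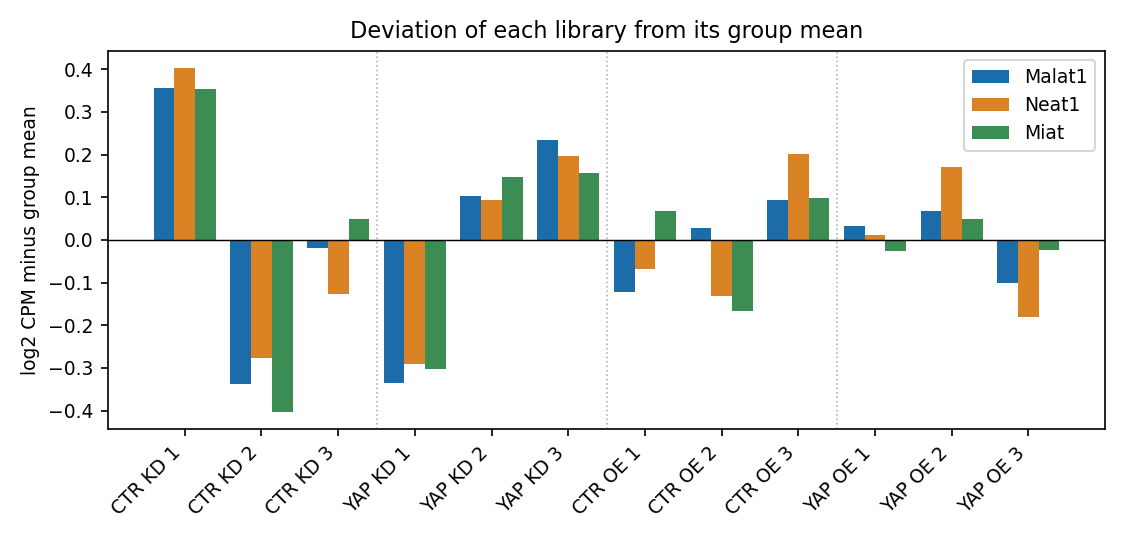
Deviation of each library from its group mean (log2 CPM, y axis) for Malat1, Neat1 and Miat in the 12 libraries (x axis), bars from 0. In CTR KD replicate 1 the 3 bars reach 0.35 to 0.40 and in CTR KD replicate 2 they reach −0.40 to −0.28, while the largest bar of the overexpression is 0.20.

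Over the 6 knockdown libraries, Pearson's r of log2 CPM was 0.909 between Malat1 and Neat1 (exact permutation p = 0.00833, adjusted over 6 relations 0.0167) and Spearman's rho was 0.943 (exact p = 0.0167, adjusted 0.0333). Between Malat1 and Miat, r was 0.923 (exact p = 0.00417, adjusted 0.0125) and rho 0.943 (exact p = 0.0167, adjusted 0.0333). Between Neat1 and Miat, r was 0.939 (exact p = 0.00417, adjusted 0.0125) and rho 1 (exact p = 0.00278, adjusted 0.0167). Without the 2 libraries farthest from the median of the first gene, r was 0.838, 0.818 and 0.915. These values rest on few libraries and were not tested. CTR KD replicate 1, the highest library for Malat1, was kept in both relations of Malat1 and left out between Neat1 and Miat. The points share library, depth and scaling, and all tests were two-sided.

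Over the 6 overexpression libraries no relation passed the threshold. Between Malat1 and Neat1, r was 0.779 (exact permutation p = 0.0639, adjusted 0.0958) and rho 0.6 (exact p = 0.242, adjusted 0.29). Between Malat1 and Miat, r was 0.263 (exact p = 0.610, adjusted 0.610) and rho 0.486 (exact p = 0.356, adjusted 0.356). Between Neat1 and Miat, r was 0.644 (exact p = 0.158, adjusted 0.19) and rho 0.771 (exact p = 0.103, adjusted 0.154). Without 2 libraries these values of r became 0.696, 0.947 and 0.0116. Whether the relations differ between the experiments was not tested.

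Fragment length differed between libraries as well. The mean transcript length minus the effective length, which reflects it, was 185.3 bases in YAP KD replicate 1, where Malat1 was lowest, and 169.2 in YAP KD replicate 3, where it was high, but 174.7 and 176.1 in replicates 1 and 2 of CTR KD, which were the highest and the lowest of their group. Its r over the 6 knockdown libraries was −0.57 with Malat1, −0.31 with Neat1 and −0.33 with Miat, and over the 6 overexpression libraries −0.54, −0.60 and −0.23, given as descriptions. Its part in the shared variation was not tested.

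Other genes varied with them. The genes most like Malat1 over the 12 libraries, among 12394 averaging 50 or more expected counts, were Snhg11 (r = 0.981), a host of small nucleolar RNAs, Meg3 (0.979) and Slc25a27 (0.961), a mitochondrial carrier. Those most like Neat1 were Gabbr1 (0.972), a subunit of the GABA-B receptor, Mid1 (0.950), a ubiquitin ligase of microtubules, and Leng8 (0.948). Those most like Miat were Sc5d (0.922), an enzyme of cholesterol synthesis, Fam132b (0.882), which encodes erythroferrone, and Gm16982 (0.878). The r over 12 libraries also carries the difference of Miat between the experiments. Over the 6 overexpression libraries alone, r with Miat was 0.616 for Sc5d, 0.471 for Fam132b and −0.157 for Gm16982, whereas r with Malat1 was 0.851 to 0.942 and r with Neat1 0.865 to 0.972 for the genes named for them. By this measure Neat1 ranked 72 among the genes like Malat1, and Miat ranked 152. None of these 9 genes was called in YAP KD or YAP OE. Meg3 shows the likeness by library, with 139.7, 71.8 and 87.5 CPM in the control and 72.5, 108.2 and 117.9 CPM in YAP KD, the same order as Malat1 within each group. In CTR OE it was at 112.4, 121.2 and 127.1 CPM and in YAP OE at 114.6, 120.2 and 100.2 CPM, which also is the order of Malat1.

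To see which kinds of genes these were, each library's deviation from its group mean was correlated with that of Malat1 over the 12 libraries, as a description. A deviation r of at least 0.8, a limit set after the values were seen, was reached by 4.78% of 15048 other genes, whose median r was −0.032. Among other lncRNAs it was reached by 9 of 21 (median 0.62). These were the imprinted Meg3 (0.98), Rian (0.94), Mirg (0.94) and Kcnq1ot1 (0.97), the nuclear Firre (0.98), the microRNA host Mir17hg (0.97), the small nucleolar RNA host Gas5 (0.95), and Pvt1 (0.91) and Tug1 (0.82). Not all lncRNAs did so. The cytoplasmic 2900097C17Rik, also named Norad, had −0.77, and Rmrp and Rpph1 had −0.57 and −0.56. In the knockdown libraries alone 13 of the 21 reached 0.8, beside 11.3% of all genes, and in the overexpression libraries alone 7 of 21, beside 6.08%. Of the 9 named above, Kcnq1ot1, Firre, Mir17hg, Mirg and Meg3 had an r of 0.95 to 0.97 in the overexpression as well. Pvt1 had 0.94 there, Rian 0.79, Tug1 0.65 and Gas5 0.60. Elsewhere in the list, Snhg1 and Epb41l4aos had −0.64 and −0.62 in the overexpression, against 0.81 and 0.79 in the knockdown. With the deviations of Neat1, 9 of the 21 lncRNAs reached 0.8, and with those of Miat 6 of 21, beside 2.85% and 2.53% of all genes. In the knockdown libraries alone 11 of 21 did so for either, beside 9.60% and 13.5% of all genes. In the overexpression libraries alone it was 2 of 21 for Neat1 (beside 5.42%). For Miat it was 0 of 21 there (beside 4.76%), with a median r of −0.083.

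Nuclear speckle and SR proteins, the splicing factors and kinases that share the compartment of Malat1, reached 0.8 in 9 of 22 cases (median 0.66), beside 4.78% of all genes. They included Pnisr (0.98), Luc7l3 (0.96), the SR protein kinases Clk1 (0.94), Clk4 (0.89) and Prpf4b (0.89), Srsf5 (0.93), Pnn (0.87), the scaffold Son (0.85) and Srsf10 (0.83). Rnps1, a factor of the exon junction complex, had −0.93. In the overexpression libraries alone 4 of the 22 reached 0.8, beside 6.08% of all genes. With the deviations of Neat1, 5 of the 22 reached 0.8 over the 12 libraries (beside 2.85% of all genes). In the overexpression alone 1 of 22 did so for Neat1 (beside 5.42%). With those of Miat it was 5 of 22 over the 12 libraries (beside 2.53%). For Miat it was 0 of 22 in the overexpression alone (beside 4.76%), with a median r of −0.19. Among 16 paraspeckle proteins 3 reached 0.8 with Malat1 over the 12 libraries, Cpsf6 (0.87) and Tardbp (0.84) among them, beside 4.78% of all genes. Their median was 0.12, Smarca4 had −0.86, and the core proteins Sfpq, Nono and Pspc1 had 0.54, −0.57 and 0.38. Of 12 genes for the processing of the Malat1 3′ end, 0 reached it (median −0.21). Of 7 genes flanking Malat1 and Neat1 on chromosome 19, 0 reached it either (median 0.039), and Frmd8, next to Neat1, had −0.80. The 5 tested neighbors of Miat had a median of −0.55, with −0.89 for Tfip11, a spliceosome disassembly factor. What these genes share beyond their likeness was not tested.

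**Figure D4:**
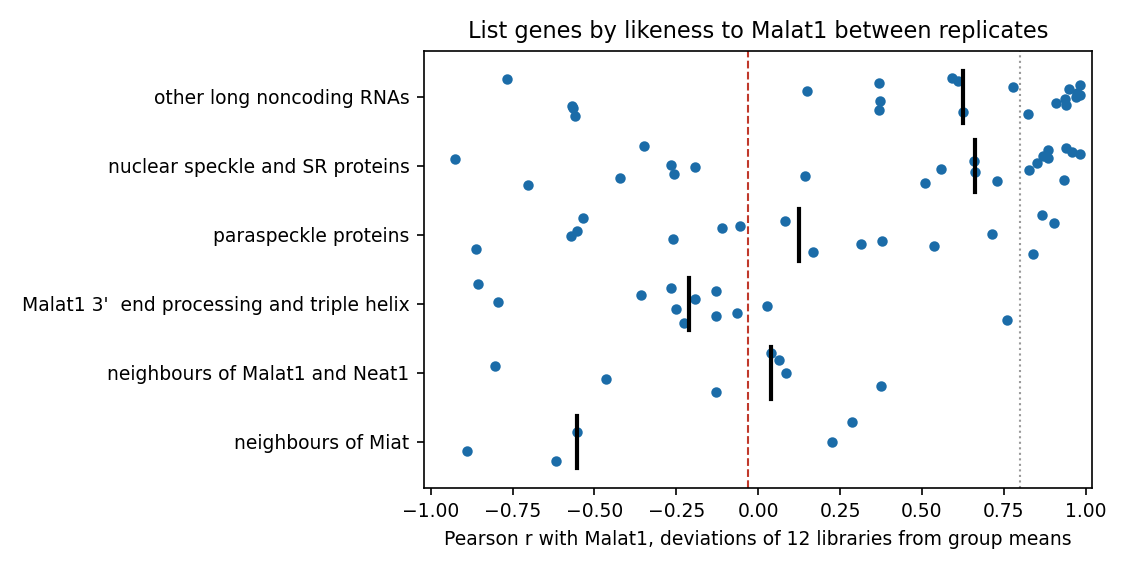
Pearson's r with Malat1 of the deviations of 12 libraries from their group means (x axis), 1 point per gene, for 6 gene lists (rows). Black bars are list medians, the dashed line is the median of all genes (−0.032) and the dotted line the limit of 0.8. Other lncRNAs (median 0.62) and speckle proteins (0.66) sit toward the right, and the neighbors of the lncRNA genes do not.

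The YAP response of the genes that work with the 3 lncRNAs was read from lists. Of 92 genes in 7 lists, 85 were tested in YAP KD and 4 were called (4.71%), 2 higher (beside 2.71% of all genes) and 2 lower (beside 2.78%), with a median log2 fold change of 0.026 beside 0.0058 for all genes. Over all genes the share was 5.49%. Taf15, an RNA-binding protein found in paraspeckles, fell from 56.6 ± 1.84 to 46.4 ± 2.39 CPM (log2 fold change −0.28, edgeR adjusted p = 0.0109, SE 0.0495). It lost its call without CTR KD replicate 3. Snhg1 fell by 0.27 on the log2 scale (edgeR adjusted p = 0.0125, SE 0.0491), from 57.4 ± 2.29 to 47.4 ± 2.01 CPM, and lost its call without CTR KD replicate 3, YAP KD replicate 1 or YAP KD replicate 2. Ehbp1l1, a neighbor of Malat1 that encodes an adaptor of vesicle transport, rose from 5.17 ± 0.209 to 6.95 ± 0.467 CPM (log2 fold change 0.43, edgeR adjusted p = 0.0148, SE 0.0804), and lost its call without CTR KD replicate 3 or YAP KD replicate 3. Rpp14, a subunit of RNase P, rose with a log2 fold change of 0.17 (edgeR adjusted p = 0.0491, SE 0.0418), and its call was lost when any 1 of the 6 libraries was left out.

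By list, 1 of 16 paraspeckle proteins was called in YAP KD, 1 of 12 genes for 3′ end processing, 1 of 20 other lncRNAs and 1 of 7 neighbors of Malat1 and Neat1. Over all genes tested the share called was 5.49%. Of the 22 speckle proteins 0 were called by edgeR, DESeq2 or limma-voom and 1 had an unadjusted p under 0.05, and of the 3 splicing factors that bind Miat (Sf1, Qk and Celf3) and its 5 neighbors 0 were called by these tools and 0 had an unadjusted p under 0.05. The 7 neighbors of Malat1 and Neat1 had log2 fold changes of 0.0088 to 0.43, with a median of 0.20 beside 0.0058 for all genes. Of the 7, Slc25a45, Ltbp3 and Tigd3 averaged only 0.529, 1.43 and 2.37 CPM over the 12 libraries. In YAP OE the same 7 had a median of −0.12 (−0.29 to 0.0022), beside −0.0025 for all genes. Of the 7, 0 were called by any of the 3 tools, beside 2.13% of all genes called by edgeR, and 1 had an unadjusted p under 0.05.

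In YAP OE, 1 of the 85 list genes tested was called (1.18%), beside 2.13% of all genes called and 1.66% called higher. It was H19, which was at 0.656, 0.655 and 0.701 CPM in CTR OE and 1.18, 1.58 and 1.23 CPM in YAP OE, without overlap. Its log2 fold change was 0.97 (edgeR adjusted p = 0.00891, SE 0.181), and it kept its call under all 10 alternatives and without any 1 of the 6 libraries. In the knockdown, where H19 was not called, it was at 0.581 ± 0.190 CPM in the control and 0.929 ± 0.118 CPM in YAP KD. Of the 22 speckle proteins 0 were called by any of the 3 tools and 2 had an unadjusted p under 0.05, and the same numbers held for the 16 paraspeckle proteins.

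Since Neat1 has isoforms of different length, the mean transcript length that RSEM gives, weighted by estimated isoform abundance, was also compared. It was 7608, 8211 and 7538 bases in CTR KD and 9277, 8585 and 8899 bases in YAP KD, so the groups did not overlap. The means were 7786 ± 370 and 8921 ± 347 bases (SD, n = 3), a difference of 1135 bases and of 0.20 on the log2 scale (SE 0.0474). Its unadjusted limma p was 0.0108, which ranked 53 among 3837 genes whose length varied, and its adjusted p was 0.785. In limma 0 of these genes passed the threshold (0% called) and 229 had an unadjusted p under 0.05. The exact permutation p for Neat1 was 0.1, two-sided, the smallest that 3 against 3 libraries can give. In CTR OE the length was 9215, 8341 and 8605 bases and in YAP OE 8760, 9966 and 8790, with overlap and a difference of 452 bases (exact permutation p = 0.5, beside 0.0257% of 3888 genes called by limma). The CTR OE lengths were above those of CTR KD in each pair of libraries. With the effective length of each library as an offset, the log2 fold change of Neat1 turned from 0.12 to −0.086 in YAP KD and went from −0.092 to −0.17 in YAP OE, and it was called in neither. Malat1 had a length of 6982 bases throughout. Miat was assigned 8716 bases in 9 libraries, 8760 in CTR KD replicate 3 and YAP OE replicate 3, and 8727 in CTR OE replicate 2.

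**Figure D5:**
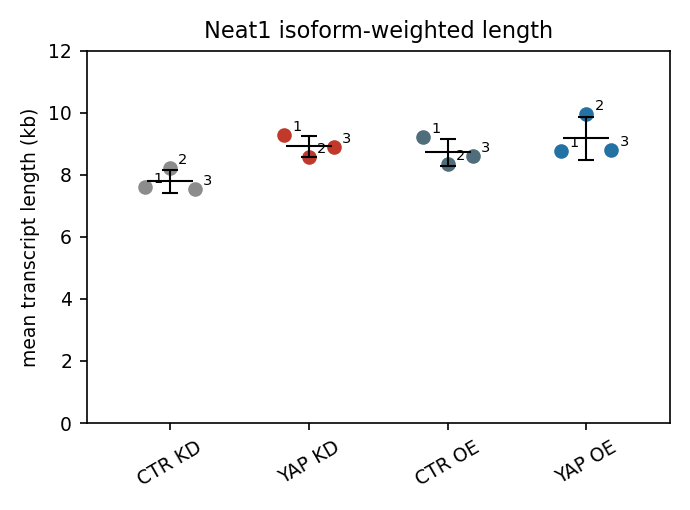
Abundance-weighted mean transcript length of Neat1 in kilobases (y axis from 0) in the 4 groups, points are libraries numbered by replicate, bars the mean and SD. The CTR KD points (7538 to 8211 bases) lie below the other 9 (8341 to 9966 bases).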

How the data were processed

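Total RNA of transiently transfected ESCs was sequenced by the authors. Per the study's methods and the submitters' processing notes, reads were aligned to mm10 with STAR and assigned by RSEM to curated RefSeq transcripts. Tool versions and a strand setting are not given in the sources used here, so reads of antisense genes cannot be separated. The deposited tables give expected counts per gene, not normalized, with the mean and effective transcript length. The deposited TPM and FPKM values, which the authors' RSEM run scaled by length and library, were only summed or read beside the counts.

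Expected counts were rounded and tested with the edgeR 4.0.16 quasi-likelihood F test in R 4.3.3, after filterByExpr and TMM scaling. The 6 libraries of each experiment were fitted alone, and all 12 together for contrasts between experiments. P-values were adjusted over all genes tested (Benjamini-Hochberg) and called under 0.05. SEs are the log2 fold change divided by the square root of F. CPM carry the TMM factors of 12 libraries, and log2 CPM a prior count of 2. Lengths were tested with limma 3.58.1 on log2 length, for genes averaging 50 or more expected counts. Relations between the RNAs used exact permutations (720 orders). Replicates were independent samples per the study's text, and no pair differed by as little as sampling noise (chi-square divided by its degrees of freedom, 3.54 to 25.7). Promoters are from RefSeq on GRCm38.p6.

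The members, lists and tests were chosen with earlier results of these data known. Named genes are the members, Yap1, the genes of the lists, and for each member the 3 genes with the highest r to it over the 12 libraries. Neat1 has no promoter entry here, and 1 gene of the lists is not reported here. Alternatives were other scaling factors (relative log expression, total counts), removal of entries under 200 bases before scaling, no filter beyond 1 count, at least 1 CPM in 3 libraries, effective length as an offset, limma-voom, DESeq2 1.42.0, all 12 libraries in 1 fit, the replicate number as a block, and each library left out. The edgeR and limma tests were checked on simulated counts and lengths. In these the genes varied independently, so the check does not cover variation that genes share between libraries. The exact permutation tests were not part of it.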

Additional observations from a re-analysis of the deposited data

Results flagged for a closer look

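The effect in YAP KD minus that in YAP OE, both on the log2 scale, passed the edgeR threshold for Yap1 and for 5 of the 86 list genes tested (5.81%, beside 8.8% of all genes), and for none of the 3 lncRNAs. It was −2.11 for Yap1 (SE 0.0780). It was 0.55 for Ehbp1l1 (edgeR adjusted p = 0.00344, SE 0.103), the neighbor of Malat1 that rose in YAP KD. Among paraspeckle proteins it was −0.33 for Taf15 (edgeR adjusted p = 0.0150, SE 0.0792) and 0.21 for Pspc1 (edgeR adjusted p = 0.0288, SE 0.0549). It was 0.26 for Pop1 (edgeR adjusted p = 0.0166, SE 0.0618), a subunit of RNase P, and −0.39 for Snhg1 (edgeR adjusted p = 0.00235, SE 0.0701). Pspc1 and Pop1 were called in neither experiment alone.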

How the results depend on the processing

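Under the 10 alternatives with all libraries (9 for the difference between the experiments), none of the 3 lncRNAs was called in YAP KD, YAP OE or the difference between them. Of these values, only Neat1 in YAP KD (effective length as an offset) and Malat1 in the difference between the experiments (0.0018 under the replicate block) changed sign. Leaving out libraries gave log2 fold changes of −0.22 to 0.13 for Malat1, −0.013 to 0.34 for Neat1 and −0.060 to 0.32 for Miat in YAP KD, and of −0.12 to −0.014, −0.18 to 0.014 and −0.28 to −0.15 in YAP OE. For the difference between the experiments the ranges were −0.16 to 0.19 for Malat1, 0.080 to 0.44 for Neat1 and 0.14 to 0.52 for Miat. Between the controls they were 0.017 to 0.36 for Malat1 and 0.12 to 0.48 for Neat1. For Miat between the controls the range was 0.43 to 0.81, and the highest value, without CTR KD replicate 1, was the only one past the threshold. No scaling moved the median of all genes by more than 0.0064 on the log2 scale.

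Whether replicate numbers pair the libraries was not tested, and correlations of deviations are given as a description. Same-numbered CTR and YAP libraries had deviation correlations of −0.26, −0.10 and −0.013 in the knockdown and 0.019, 0.046 and 0.042 in the overexpression. Differently numbered ones had −0.12 to 0.21 in the knockdown. In the overexpression they had −0.050 to 0.0092, below every same-numbered value. With the replicate number as a block, 193 of the genes tested were called in YAP KD in place of 802, 1 list gene in place of 4, 2 list genes in YAP OE in place of 1, and 784 genes in place of 1325 for the difference between the experiments. No lncRNA changed its call.

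The count of all genes called in YAP KD was 1261 in the fit of all 12 libraries and 298 to 1019 with a library left out, and that of list genes 0 to 4. In YAP OE it was 556 without a filter and 154 to 327 with a library left out. List genes called in YAP OE numbered 2 with relative log expression factors, 3 without entries under 200 bases, 4 without a filter, 2 at 1 CPM or more, 2 in DESeq2, 3 with the length offset, 2 in the fit of all 12 libraries and 1 to 2 with a library left out. Between the controls 85 to 217 genes were called with a library left out. The cause of these changes was not tested. Rpp14 lost its call under 6 of the 10 alternatives.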
